A study of Mus musculus with 56 samples.

Results

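Receptors for the hypothalamic hormones were followed through 56 single cells (SCs) from primary mouse pituitary cultures. The 10 genes were *Gnrhr*, *Ghrhr*, *Trhr*, *Crhr1*, *Drd2*, *Sstr2*, *Sstr3*, *Sstr5*, *Avpr1b* and *Ghsr*, chosen by name because each encodes a receptor through which the hypothalamus, or for *Ghsr* the stomach hormone ghrelin, reaches pituitary cells. All 10 had a row among the 47069 gene identifiers of the table. Of the 560 receptor values, 10 genes in 56 wells, only 31 were above 0, and 32 wells held no count of any of them.

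The cells came from untreated cultures of female, randomly cycling C57BL/6 mice aged 10 to 12 weeks, for which the labels name no transgene, deletion or agent. Pituitaries of 5 mice were pooled into a sample, and the dispersed cells were grown for 4 days, then trypsinized and put into RNA-Best, which keeps cells whole and their RNA stable until the assay. Each cell was lysed in its own chamber of a Fluidigm C1 circuit built for small cells, polyadenylated RNA was copied with SMART-Seq v4, and libraries are called by their position on the plate. Because the labels do not say which animals or cultures a well came from, all 56 wells count as 1 sample. Differences between wells therefore lack a check in replicates, and none was tested.

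Anterior pituitary cells release their hormones under orders from the hypothalamus, which reach them through the portal blood as peptides or, in the case of dopamine, as an amine. Nearly all of these signals are read by receptors that cross the membrane repeatedly and couple to G proteins. GHRH and CRH receptors act mainly through Gs and cyclic AMP, the receptors for GnRH, TRH, vasopressin and ghrelin through Gq and phospholipase C, and the dopamine D2 and somatostatin receptors through Gi, which lowers cyclic AMP and secretion. Each endocrine cell type is known for its own set: lactotropes (prolactin, *Prl*) for *Drd2*, somatotropes (growth hormone, *Gh*) for *Ghrhr*, corticotropes (*Pomc*) for *Crhr1* and *Avpr1b*, gonadotropes (*Lhb*, *Fshb*) for *Gnrhr*, and thyrotropes (*Tshb*) for *Trhr*.

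A level is given in counts per 1000000 gene counts (CPM), and a receptor was taken as found in a well at 1 CPM or more. Gene counts per well ran from 357 to 12563266 with a median of 711525, so 1 count was worth 1.41 CPM in the median well. The depth was under 100000 gene counts in 10 wells, 100000 to 1000000 in 21 and 1000000 or more in 25. Added spike-in RNA made up 0.144% to 74.9% of all counts of a well, with a median of 7.95%. Wells B6 and H10 were barely sequenced, with under 2000 gene counts, and C10 and C11 were the most alike pair of wells (Pearson r of log2(CPM + 1) 0.966, against 0.920 for the next pair). *Prl*, *Gh* and *Pomc* were at 1 CPM or more in all 56 wells, at levels that spread widely: *Pomc* from 21.4 CPM in H11 to 356901 in E8, and *Gh* from 162 in C1 to 307675 in C9. Presence at 1 CPM thus did not sort the wells, and each was named after the hormone with the most CPM: 47 were *Prl*-led, 5 *Pomc*-led and 4 *Gh*-led, and no well was led by *Tshb* or by *Lhb* with *Fshb*.

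The sequences of 3 receptors are shown because they carried most of the signal, each with 10 counts or more in at least 2 wells, and were found together in well H2. RefSeq promoter entries (GRCm38.p6) matched 6 of the 10 receptors; *Sstr3* has 2 start sites. Each line holds the 250 bases before a start site, read 5′ to 3′ on the strand of the gene, and capitals mark AAGGNCA on either strand, the half-site bound by NR5A1, a nuclear receptor that gonadotropes use.
Gnrhr, chr5:86197902-86198151, minus strand: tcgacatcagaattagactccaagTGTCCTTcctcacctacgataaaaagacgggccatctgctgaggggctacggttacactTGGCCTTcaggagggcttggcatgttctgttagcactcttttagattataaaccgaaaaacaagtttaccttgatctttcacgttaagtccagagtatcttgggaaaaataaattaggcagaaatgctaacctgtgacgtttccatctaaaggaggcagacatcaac
Crhr1, chr11:104132531-104132780, plus strand: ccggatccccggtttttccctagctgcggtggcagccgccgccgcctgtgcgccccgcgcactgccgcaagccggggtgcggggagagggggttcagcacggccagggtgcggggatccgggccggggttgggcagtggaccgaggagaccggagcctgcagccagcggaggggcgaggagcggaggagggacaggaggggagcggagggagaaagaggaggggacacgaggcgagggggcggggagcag
Sstr3, chr15:78544346-78544595, minus strand: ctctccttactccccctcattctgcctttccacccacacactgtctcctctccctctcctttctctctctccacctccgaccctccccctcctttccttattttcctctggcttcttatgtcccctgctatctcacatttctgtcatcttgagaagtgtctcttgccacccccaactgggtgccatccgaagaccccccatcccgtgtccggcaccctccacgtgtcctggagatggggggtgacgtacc
Sstr3, chr15:78541407-78541656, minus strand: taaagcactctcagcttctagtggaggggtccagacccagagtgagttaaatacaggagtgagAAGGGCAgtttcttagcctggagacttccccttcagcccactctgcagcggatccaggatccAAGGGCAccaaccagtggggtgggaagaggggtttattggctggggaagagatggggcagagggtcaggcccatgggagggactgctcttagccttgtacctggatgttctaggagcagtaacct

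AAGGNCA occurred 2 times in the *Gnrhr* window, starting 226 and 167 bases before the start site, both on the other strand. It occurred again in the window of the inner *Sstr3* start site, at 187 and 125 bases, on the printed strand. The windows of *Crhr1* and of the outer *Sstr3* start site did not hold it. Of all 32851 promoter windows of this length 17.5% held the half-site, so its presence is common. The other motifs searched on both strands, TCACACC (a T-box half-site of the kind TBX19 binds), TGANTCA (AP-1) and TGACGTCA (the full cyclic AMP response element), occurred in none of these 4 windows and in 3.33%, 6.75% and 1.55% of all windows. Their letters overlap no AAGGNCA match here. The 4 windows differed in base composition, from 43.2% G or C in *Gnrhr* to 74.8% in *Crhr1*, with a median of 52.4% over all windows.

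Most of the 10 receptors were found, but nearly all of them in few wells. 7 of the 10 reached 1 CPM in at least 1 well, close to the share of 73.2% among 21637 protein coding genes. Only 1 of the 10 did so in 5 wells or more, against 48.7% of protein coding genes. A receptor was found in a median of 1 well, a protein coding gene in a median of 4. *Crhr1*, the CRH receptor of corticotropes, was found in 11 of 56 wells (19.6%, 95% exact Clopper-Pearson interval 10.2 to 32.4%, which like all intervals here covers counting error only). *Sstr3*, a somatostatin receptor, was found in 4 wells (7.14%, 1.98 to 17.3%), and *Gnrhr* and *Ghrhr*, the receptors for GnRH and GHRH, in 3 wells each (5.36%, 1.12 to 14.9%). *Trhr*, *Drd2* and *Sstr2* were found in 1 well each (1.79%, 0.0452 to 9.55%). *Sstr5*, *Avpr1b* and *Ghsr* were found in 0 of 56 wells, which allows a share of up to 5.36% by the limit of 3 wells and 6.38% by the exact interval.

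**Figure D1:**
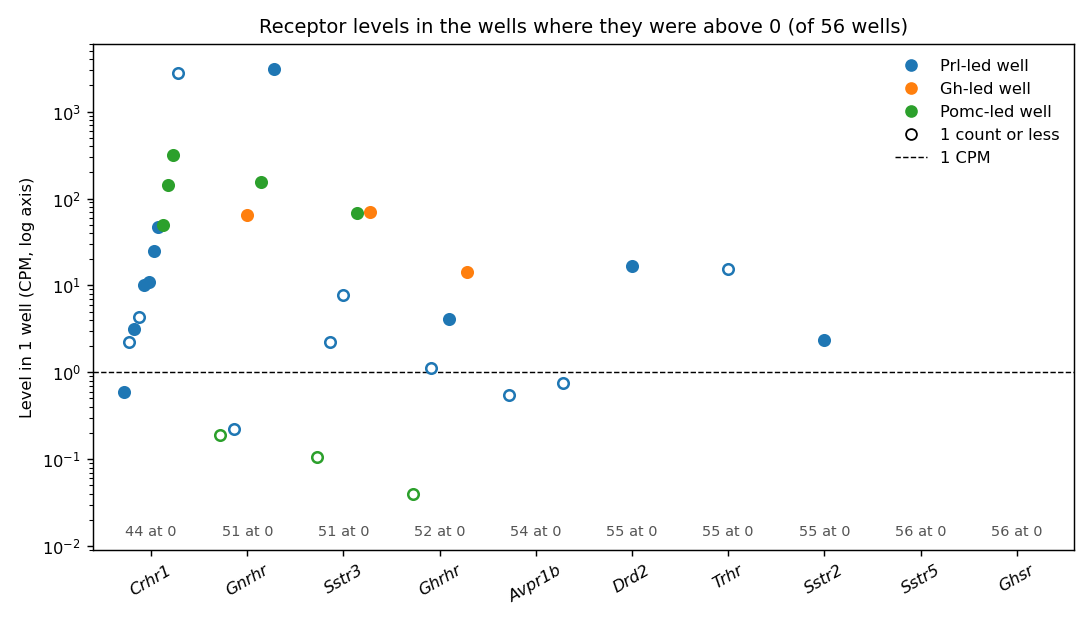
Level of each receptor (CPM, log axis) in the wells where it was above 0, coloured by the leading hormone of the well, with the number of wells at 0 written below. Open circles rest on 1 count or less, and most receptors are at 0 in 51 wells or more.

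Most wells held none of the 10. At 1 CPM, 37 wells had no receptor, 15 had 1, 3 had 2 and well H2 had 3, so 19 of 56 wells (33.9%, 21.8 to 47.8%) had at least 1. Many of these findings were thin: of the 24 pairs of well and receptor at 1 CPM, 10 rested on fewer than 10 counts, and 14 had 10 counts or more, in 11 wells. All 14 lay in wells with at least 647814 gene counts. Of the 31 values above 0, 4 were not whole numbers, 3 of them *Ghrhr* and 1 *Avpr1b*, which shows that the authors' counting shared some reads among features.

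The share of wells with a receptor was higher at greater depth, within wide intervals. At least 1 receptor was found in 2 of 10 wells under 100000 gene counts (20.0%, 2.52 to 55.6%), in 7 of 21 wells between 100000 and 1000000 (33.3%, 14.6 to 57.0%) and in 10 of 25 wells with 1000000 or more (40.0%, 21.1 to 61.3%), shares whose intervals overlap. A limit of 10 counts gave 0 of 10, 1 of 21 and 10 of 25 wells. It asks for a higher CPM in shallower wells, so the limit itself favours the deeper ones. When each of the 46 wells with at least 100000 gene counts was thinned to that depth, a receptor was expected at 1 count or more in 12.4 wells, 26.9% of them, where 21 wells, 45.7%, had it before thinning. *Crhr1* went from 11 to an expected 7.36 wells and *Gnrhr* from 5 to 3.04, while *Sstr3* went from 5 to 3.00. Depth also differed across the plate, with a median of 1050009 gene counts in columns 1 to 3 and 7 to 9 and 234987 in columns 4 to 6 and 10 to 12; the share of wells with a receptor was 31.0% (9 of 29) and 37.0% (10 of 27) in these.

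**Figure D2:**
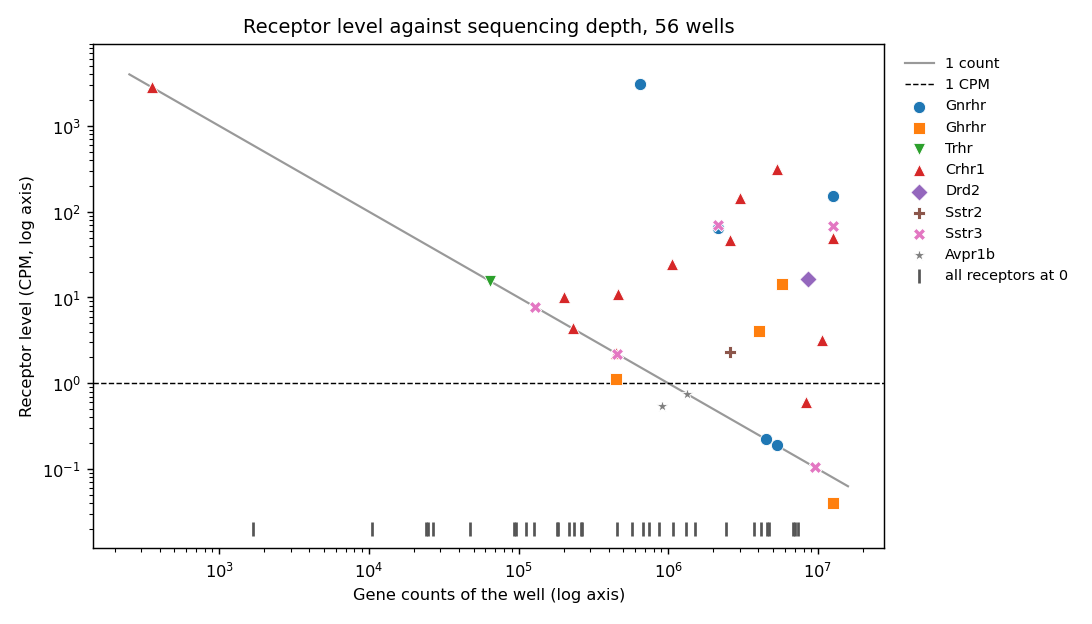
Receptor level (CPM, log axis) against the gene counts of the well (log axis), 1 mark per receptor and well above 0. The grey line is the level that 1 count gives, the dashed line is 1 CPM, and ticks at the bottom are the 32 wells with all 10 receptors at 0, the deepest of which had 7294071 gene counts; marks of *Gnrhr* and *Sstr3* in well F4 coincide.

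Compared per length of transcript, as reads per kilobase of exon per 1000000 gene counts, *Gnrhr* stood highest in the pooled counts of all wells at 9.56, followed by *Crhr1* at 8.92, *Sstr3* at 1.76, *Drd2* at 0.420, *Ghrhr* at 0.215 and *Sstr2* at 0.0211. *Avpr1b* (0.00281) and *Trhr* (0.00188) rested on 1.5 counts and 1 count in all. *Sstr5* and *Ghsr* had no count among 132709194 gene counts, where 3 counts would have given 0.0226 CPM. The order of the leading pair turned round in the mean over wells, 24.8 ± 153 for *Crhr1* against 18.3 ± 128 for *Gnrhr* (SD, n = 56), and their difference was far smaller than the spread between wells. This turn rested on B6, where *Crhr1* had 1 of 357 gene counts: without it the means were 4.51 ± 18.9 for *Crhr1* and 18.6 ± 129 for *Gnrhr* (SD, n = 55). The mean of *Gnrhr* rested in turn on E3 and was 1.24 ± 6.99 (SD, n = 55) without it. A few wells made these totals: E3 and H2 held 96.6% of all *Gnrhr* counts, H2 and F4 99.7% of *Sstr3*, B2 and H2 78.2% of *Crhr1*, H11 and H4 99.0% of *Ghrhr*, and G1 all 142 counts of *Drd2*.

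*Gnrhr*, on the minus strand of chromosome 5 (chr5:86180754-86197901, GRCm38; ENSMUSG00000029255.8, protein coding), encodes the receptor for GnRH, the peptide that drives LH and FSH release from gonadotropes. It had 1982 counts in E3 (3059.5 CPM), 1937 in H2 (154 CPM) and 136 in F4 (63.8 CPM). G7 and B2 held 1 count each (0.223 and 0.189 CPM), and the other 51 wells held none. Well E3 thus stood far above the others, at less depth than either of the other wells in which the gene was found. It was also the well with the most *Lhb* (59401 CPM) and *Cga* (57530 CPM), the subunits of LH, and 1 of only 2 wells with *Fshb* at 1 CPM or more, at 2464 CPM.

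The 5 wells with the most *Lhb* were E3, F4, H7, G7 and A9. *Lhb* was at 59401 CPM in E3, 1643 in F4, 1584 in H7, 1490 in G7 and 988 in A9, so the well next to E3 lay far below it. *Gnrhr* was missing from 3 of these 5 wells (interval 14.7 to 94.7%), H7, G7 and A9, and was found in 1 of the other 51 (1.96%, 0.0496 to 10.4%). The depths differed, with a median of 2133329 gene counts in the 5 and 678551 in the 51. In H7 and A9 a count of 0 allows up to 1.24 and 13.7 CPM, both under the 63.8 CPM of F4. These limits, like the later ones of this kind, cover the sampling of reads only, not transcripts lost before sequencing. H7, G7 and A9 were *Prl*-led, with 229817, 366756 and 505876 CPM of *Prl*. *Nr5a1*, the gene of the nuclear receptor that defines gonadotropes, was at 1.54 CPM in E3 and 0 in H7, G7 and A9. The level in E3 was 1 count, and 1 count also gave 2.20 CPM in C11 and 1.75 CPM in C7. The highest level of *Nr5a1* in all wells, 30.0 CPM, was in F4.

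Well F4 did not carry the full set of any 1 cell type. It was *Gh*-led, but only with 5384 CPM, the 34th level of *Gh* among the 56 wells, and it combined the second highest *Lhb* with *Gnrhr*, *Sstr3* and *Nr5a1*. *Cga*, whose product pairs with LHB, was at 0.469 CPM. *Pcsk1*, a prohormone protease, was at 2462 CPM, its highest level in the 56 wells. *Neurod1*, listed here with *Pcsk1* as a corticotrope marker, was also highest in F4, at 189 CPM, and *Pcsk2* was second highest, at 919 CPM. Of the other corticotrope markers listed, *Pomc* was at 33.8 CPM and *Tbx19* and *Crhr1* were at 0.

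*Crhr1* (chr11:104132855-104175523, plus strand; ENSMUSG00000018634.10, protein coding) encodes the receptor through which CRH drives *Pomc* cells. Among wells with at least 2000 gene counts it was highest in B2, with 1656 counts (313 CPM), followed by D10 with 438 (145 CPM), H2 with 621 (49.4 CPM), H3 with 121 (47.1 CPM) and G2 with 26 (24.8 CPM). H5, H6, H9, A2 and B3 lay between 10.9 and 2.23 CPM, on 5, 2, 34, 1 and 1 counts. Its highest CPM of all, 2803 in B6, was 1 count of 357. G10 held 5 counts at 0.600 CPM.

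The leading wells were *Pomc*-led: *Crhr1* was found in 3 of 5 *Pomc*-led wells (interval 14.7 to 94.7%), B2, D10 and H2, and in 8 of 51 others (15.7%, 7.02 to 28.6%), all 8 *Prl*-led. The median depth was 5298575 gene counts in the 5 and 572863 in the 51. The 3 *Pomc*-led wells held 2715 of the 2911 counts of the gene. By level of *Pomc*, H2 and D10 ranked only 8th and 9th of all wells, at 59274 and 51676 CPM. *Prl*-led A10, D7 and E1 had more *Pomc* (73004, 70823 and 60788 CPM) and no *Crhr1* count. In these, 0 counts allow up to 23.5, 3.48 and 0.661 CPM. Barely sequenced B6, also *Prl*-led, had 72866 CPM of *Pomc* and 1 count of *Crhr1*. *Crhr1* was missing from *Pomc*-led E8 and F11 (2 of 5, 40.0%, 5.27 to 85.3%). There, 0 counts allow up to 2.28 and 0.316 CPM, under the 49.4 CPM of H2.

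These 5 wells were unlike each other. E8 had the most *Pomc* of all wells (356901 CPM) with *Pax7* at 25.1 CPM and *Pcsk2* at 1568 CPM, the factor and the protease known from melanotropes, and *Tbx19*, the T-box factor of the *Pomc* lineage, at 14.5 CPM. F11 had *Pomc* at 180795 and *Tbx19* at 777 CPM and no *Pax7* count, and its 4 globin genes summed to 146551 CPM. B2 joined the highest *Tbx19* (1289 CPM) to the highest well supported *Crhr1*. D10 had *Pomc* at 51676 CPM and *Crhr1* with *Tbx19* at 0 and all of *Lhb*, *Fshb*, *Tshb* and *Cga* at 0, and H2 had *Pomc* at 59274 with *Tbx19* at 0.398 CPM. *Tbx19* was at 1 CPM or more in 5 of the 11 wells with *Crhr1* and in 9 of the 45 without.

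*Avpr1b* (chr1:131599239-131612000, plus strand; ENSMUSG00000026432.7), the vasopressin receptor that corticotropes use beside *Crhr1*, was at 0 in all 5 *Pomc*-led wells. It had 1 count in A1 (0.748 CPM) and 0.5 counts in D2 (0.551 CPM), both *Prl*-led.

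The mean of *Crhr1* depended on 1 nearly empty well. It was 101 CPM in *Pomc*-led and 61.8 CPM in *Prl*-led wells, 1.64-fold, with B6 counted among the latter. Without B6 and H10 the *Prl*-led mean was 2.29 CPM and the ratio 44.2-fold, past the 4-fold limit that 15.7% of 15010 genes with a mean of 1 CPM or more also passed. With B6 kept and B2 left out it was 0.784-fold.

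*Sstr3* (chr15:78537008-78544685, minus strand; ENSMUSG00000044933.2) is 1 of the receptors by which somatostatin restrains secretion. It had 859 counts in H2 (68.4 CPM) and 149 in F4 (69.8 CPM), nearly the same level at different depths. F12, C11 and F11 held 1 count each, at 7.71, 2.20 and 0.105 CPM, and the other 51 wells none. C10, the well most like C11, held no count; without C11 the gene was found in 5.45% of 55 wells. Both wells with more than 1 count of *Sstr3* also had *Gnrhr*, and *Gnrhr* was found in 1 further well, E3, where *Sstr3* was at 0.

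Of the 3 receptors with a mean of 1 CPM or more over all wells, *Gnrhr*, *Crhr1* and *Sstr3*, the last was past 4-fold, at 13.7 CPM in *Pomc*-led and 17.5 CPM in *Gh*-led against 0.211 CPM in *Prl*-led wells, a limit passed by 15.7% of 14913 genes in the *Pomc*-led and 14.8% in the *Gh*-led comparison. The *Prl*-led mean rested on 2 counts, so the ratios of 64.9 and 82.7 have counting intervals of 18.0 to 536 and 22.9 to 683. These cover the error of the 2 counts only, with the other mean held fixed, and do not show that a ratio is stable. Each ratio also rested on 1 well: without H2 the *Pomc*-led ratio was 0.125, and without F4 no *Gh*-led well had a count. For *Gnrhr* the means were 30.9 CPM in *Pomc*-led, 15.9 in *Gh*-led and 65.1 in *Prl*-led wells, and E3 made nearly all of the last. Without E3 the *Prl*-led mean of *Gnrhr* was 0.00485 CPM, the single count of G7. The other 7 lay under this mean limit, among them *Ghrhr*, with means of 3.56 CPM in *Gh*-led wells, all of it from H11, and 0.111 CPM in *Prl*-led wells. Without B6 and H10 the *Gh*-led share of genes past 4-fold was 14.9%, and the calls of *Sstr3* and *Gnrhr* were the same.

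*Sstr2* (chr11:113619342-113626028, plus strand; ENSMUSG00000047904.6), a main somatostatin receptor of somatotropes, lies within the longer gene *Slc39a11* but shares no exon with it. It had 6 counts in H3 (2.33 CPM), a *Prl*-led well that also had *Crhr1*, and 0 in the other 55. *Sstr5* (chr17:25489875-25497288, minus strand; ENSMUSG00000050824.11), the other somatostatin receptor known from somatotropes, had no count. *Sstr1*, taken from the list of other receptors, was found in H11 alone with 224 counts (38.9 CPM), and *Sstr4* in no well.

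*Ghrhr* (chr6:55376295-55388530, plus strand; ENSMUSG00000004654.6) encodes the receptor for GHRH, the driver of growth hormone release. It had 82 counts in H11 (14.2 CPM) and an estimated 16.45 in H4 (4.08 CPM). B3 and H2 held 0.5 counts each, at 1.12 and 0.0398 CPM, so B3 passed the limit on less than 1 count. H11 was *Gh*-led and had the most *Pou1f1* (695 CPM), the factor of the *Gh*, *Prl* and *Tshb* lineage. Its *Gh*, at 12350 CPM, was only the 27th level of the 56 wells, beside *Prl* at 2069 and *Pomc* at 21.4 CPM. H4 was *Prl*-led and had 4 of 5 endothelial markers at 100 CPM or more, summing to 8855 CPM.

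*Ghrhr* was missing from 3 of the 4 *Gh*-led wells (interval 19.4 to 99.4%), B12, C9 and F4, and was found in 2 of the other 52 (3.85%, 0.469 to 13.2%). The median depth was 3945964 gene counts in the 4 and 610338 in the 52. Zero counts allowed up to 0.426 CPM in B12, 1.41 in F4 and 4.42 in C9, all under the 14.2 CPM of H11. C9 had the most *Gh* of all wells, 307675 CPM, yet no count of *Ghrhr*, *Ghsr*, *Sstr2* or *Sstr5*. B12, like F4, was *Gh*-led at a low level, 10514 CPM, the 30th of the 56 wells, with *Pou1f1* at 2.84 CPM. *Ghsr* (chr3:27371351-27378010, plus strand; ENSMUSG00000051136.1), the ghrelin receptor, had no count in any well.

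*Drd2* (chr9:49340627-49408177, plus strand; ENSMUSG00000032259.7) encodes the receptor through which dopamine holds prolactin release down. Its only counts were the 142 of well G1 (16.6 CPM), a *Prl*-led well with 466366 CPM of *Prl*, the seventh highest, and *Crhbp* at 24875 CPM, the second highest. The other 46 of 47 *Prl*-led wells lacked it (97.9%, 88.7 to 99.9%), and it was found in 0 of the 9 others. The median depth was 453587 gene counts in the *Prl*-led and 5298575 in the other wells. The share of spike-in RNA, highest at 74.9% in *Prl*-led A6, was not used to leave wells out, so poor libraries are counted as lacking *Drd2*. In 32 of the 46 wells the limit set by 0 counts lay under the level of G1, and in the other 14 it did not. It covers the sampling of reads only, so 0 counts do not show that the transcript was absent. Among *Prl*-led wells with 1000000 gene counts or more, 16 of 17 lacked *Drd2* (94.1%).

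*Trhr* (chr15:44196135-44235912, plus strand; ENSMUSG00000038760.13), the TRH receptor of thyrotropes and lactotropes, had 1 count in E6 (15.6 CPM), a *Prl*-led well with 63944 gene counts. No well was led by *Tshb*, whose highest level was 49.8 CPM in H2, and *Tshb* was at 0 in E6.

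**Figure D3:**
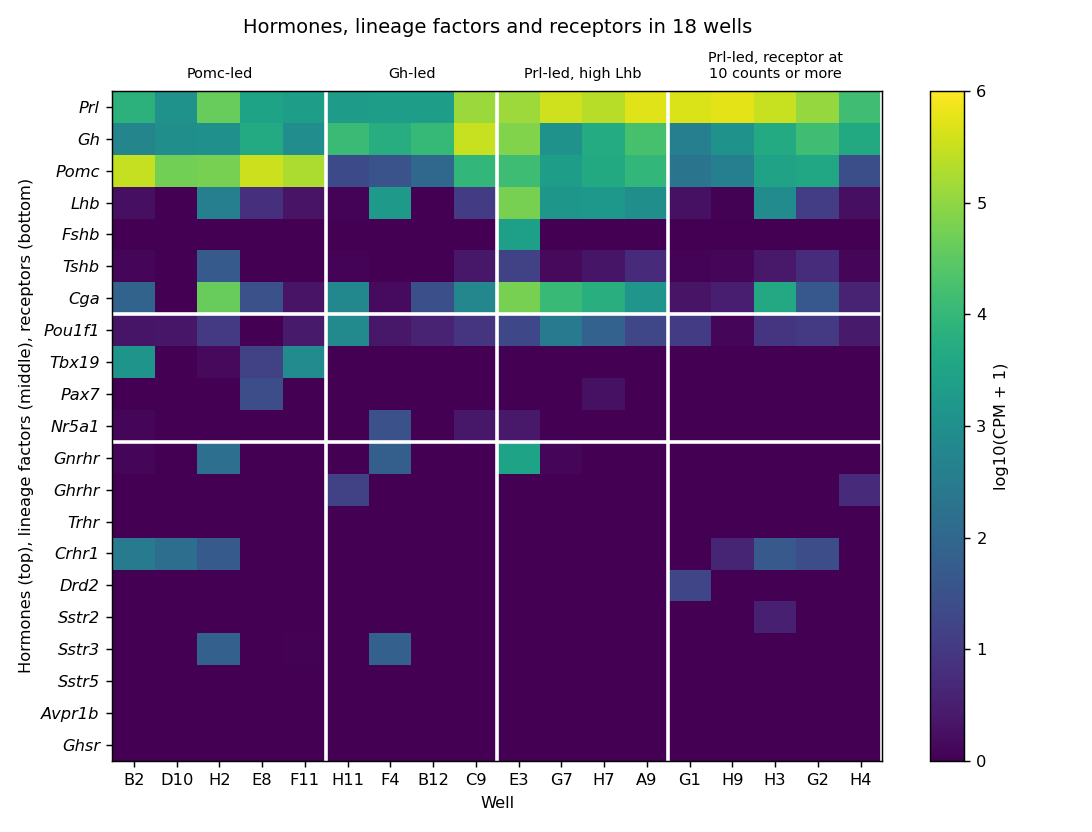
Colour gives log10(CPM + 1) of 7 hormones, 4 lineage factors and the 10 receptors in 18 wells: the *Pomc*-led and *Gh*-led wells, the *Prl*-led wells among the 5 with the most *Lhb*, and the *Prl*-led wells with a receptor at 10 counts or more. Receptor signal sits in scattered wells, with *Gnrhr*, *Crhr1* and *Sstr3* together in H2 and E8, F11, B12 and C9 dark for every receptor but the 1 count of *Sstr3* in F11.

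Few wells held more than 1 receptor. H2 had *Gnrhr*, *Crhr1* and *Sstr3*, F4 had *Gnrhr* and *Sstr3*, H3 had *Crhr1* and *Sstr2*, and B3 had *Crhr1* and *Ghrhr* on 1 and 0.5 counts. H2 was the deepest well, with the most genes at 1 count or more (12871), *Pomc* at 59274, *Prl* at 40662 and *Cga* at 41215 CPM, and it held 1937 counts of *Gnrhr* beside 621 of *Crhr1*, receptors known from different cell types. H3 and B3 were *Prl*-led. B3 had the third most genes (11573) at only 447616 gene counts. Whether a chamber held more than 1 cell was not tested.

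Signalling genes behind these receptors were found far more often than the receptors themselves. Of 50 listed genes for G proteins, cyclases, kinases, phospholipases, channels and regulators, 48 had a row, all 48 were found in at least 1 well and 12 in 28 wells or more, with a median of 13 wells. Of all protein coding genes 73.2% were found in at least 1 well and 18.9% in 28 or more, with the median of 4 wells given above. *Gnas*, the Gs subunit used by *Ghrhr* and *Crhr1*, was found in 46 wells (82.1%, 69.6 to 91.1%). Subunits of the Gi family, through which *Drd2* and the somatostatin receptors act, followed with *Gnai3* in 32, *Gnai2* in 29, *Gnao1* in 23, *Gnaz* in 14 and *Gnai1* in 4 wells. Those of the Gq family, through which *Gnrhr* and *Trhr* act, were *Gna11* in 28 and *Gnaq* in 18. Genes with the highest mean CPM in the list were *Prkar1a* (found in 55 wells) and *Prkar1b* (50), which encode regulatory subunits of protein kinase A, *Rgs4* (23) and *Rgs2* (49), which shorten G protein signals, *Gna11*, and the cyclase *Adcy6* (29). Among wells with at least 1000000 gene counts, the 10 with a receptor at 10 counts or more had 7 to 24 of these genes (median 16), and the 15 without had 8 to 24 (median 17), so the ranges overlapped.

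Other receptors that pituitary cells are known to use were also sparse. Of 29 listed genes 28 had a row. Of these, 18 were found in at least 1 well and 3 in 5 wells or more, with a median of 1 well. The shares of protein coding genes were 73.2% and 48.7%, with a median of 4 wells. *Oxtr*, the oxytocin receptor, was found in 13 wells (23.2%, 13.0 to 36.4%), all *Prl*-led, at 2.21 to 122 CPM. Under 1 CPM it also had 5 counts in *Pomc*-led F11 (0.527 CPM). *Gh*-led H11 and F4 held 4 counts and 1 count (0.695 and 0.469 CPM). *Prl*-led C10, D12 and E6, at less depth, passed the limit on 1 count each. *Ednrb*, an endothelin receptor, was found in 12 wells (21.4%, 11.6 to 34.4%), 11 of them *Prl*-led, at 1.10 to 1630 CPM. Because 47 wells were *Prl*-led in all, these numbers do not tie either gene to *Prl*-led wells. *Adcyap1r1*, the PACAP receptor, was found in 4 wells, up to 319 CPM in H2, and *Agtr1a*, an angiotensin receptor, in 2. *Oprk1* (317 CPM in B3) and *Agtr1b* (94.0 CPM in F3) were found in 1 well each.

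Close relatives of the 10 were found in few wells. *Drd1* was found in 1 well (34.4 CPM in D3), *Drd5* in 2 wells at up to 2.23 CPM, and *Drd3* and *Drd4* in none. *Trhr2* was found in B3 (49.1 CPM) and A8 (7.59 CPM), *Crhr2* in H6 (5.00 CPM), *Avpr1a* in B12 (9.23 CPM) and *Avpr2* in no well. Well B3 alone held 9 of the 28.

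**Figure D4:**
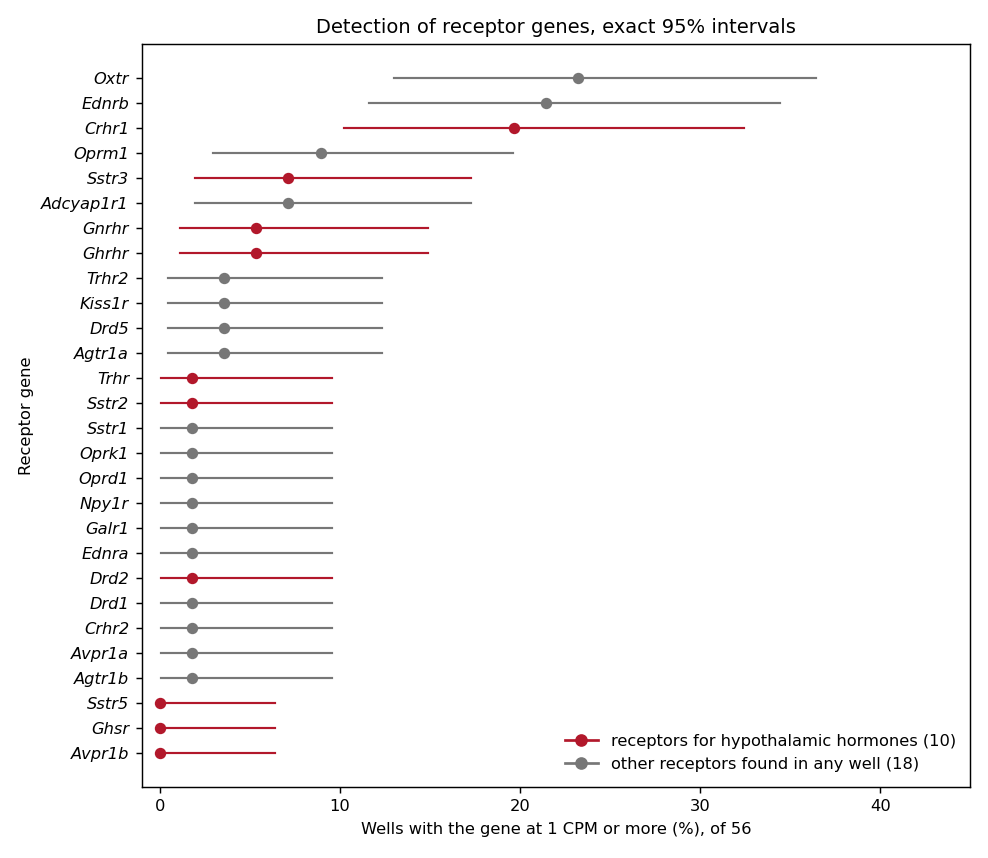
Share of the 56 wells (%) with each receptor gene at 1 CPM or more, with exact 95% intervals (lines). *Crhr1* in red lies beside *Oxtr* and *Ednrb* in grey, between 19.6% and 23.2%, and the other 9 of the 10 receptors are at 7.14% or less.

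Genes of the ligands were mostly found in few wells or none. Of 17 listed genes for hypothalamic peptides, related ligands and the CRH-binding protein, 8 were found in any well, against 73.2% of protein coding genes. *Ghrh*, *Crh*, *Sst*, *Avp*, *Ghrl*, *Th*, *Ucn*, *Ucn3* and *Cort* were found in none. *Crhbp*, whose product binds CRH and withholds it from *Crhr1*, and *Gal* were the exceptions, each found in 55 wells, with means of 3338 and 1145 CPM. *Vip* was found in 3 wells, up to 246 CPM in H11, and *Adcyap1* and *Ddc* in 2 each. *Gnrh1* was found in 1 well (26.8 CPM in B3). *Crhbp* had a median of 1293 CPM in the 11 wells with *Crhr1* and 1572 CPM in the 45 without, with overlapping ranges.

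*Crhr1* was the only receptor found in enough wells to ask which genes shared its pattern. It was compared with 10127 genes over the 46 wells with at least 100000 gene counts, 10 of which had *Crhr1*. The genes most like it in log2(CPM + 1) were *Ppm1f* (Pearson r 0.68), *Khdrbs2* (0.68) and *Haus7* (0.59). Being the highest of so many, these values are high by selection. *Pomc* had an r of 0.28, *Tbx19* of 0.23, *Prl* of -0.24 and *Pou1f1* of -0.31. These are descriptions over wells that differ in depth and whose cultures are not labelled, and with so many zeros the weak values carry no finding.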

How the data were processed

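SC RNA-seq libraries of 56 wells were analysed. Estimated counts for each gene and ERCC spike-in were deposited as 1 table, not scaled to depth; per the labels' processing notes STAR 2.5.1b, featureCounts 1.5.0-p1 and mm10 were used. The study names an annotation release for its bulk RNA-seq; for the SC table the release and the strand setting are not given in the sources used here. Of values above 0, 33.5% were not whole (tolerance 1e-09). Reads, not molecules, were counted, since the protocol has no molecular identifiers.

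CPM was calculated from the 47069 gene rows without the 92 spike-ins, and exon lengths and coordinates came from GENCODE M21 (GRCm38), which is the build of mm10. No well was removed, and doublets were not called. Intervals are exact Clopper-Pearson or Poisson intervals at 95%, and 0 counts were read as under 3 counts, a limit for the sampling of reads only. The receptors, gene lists and motifs were chosen with earlier results of these data known. The text names all 10 receptors, the hormones, the lineage factors, the 6 genes with the highest mean CPM in each of 3 lists with family members of the receptors, and the wells of receptors found in 10 wells or fewer, otherwise the 3 highest wells. *Crhr1* wells beyond these, *Slc39a11*, *Pcsk1* and *Pcsk2*, *Neurod1*, the G protein subunits and *Oprm1* were named after their values were seen. *Galr3* had no row, and *Adrbk1* and *Adrbk2*, older symbols of *Grk2* and *Grk3*, were matched under the newer names. Thinning gave the exact expectation of drawing 100000 counts without replacement after rounding. Code was tested on simulated data. Python 3.11.15, numpy 2.4.6, scipy 1.17.1, pandas 2.3.3 and matplotlib 3.10.9 were used.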

Additional observations from a re-analysis of the deposited data

How the results depend on the processing

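Alternatives changed what counts as found (1 count, 10 or 100 CPM, 1 TPM), which wells were used, their depth by thinning, and how the leading hormone is chosen. The share of wells with at least 1 receptor lay between 23.2% and 41.1% except at 100 CPM, where it was 8.93% (5 of 56). At 100 CPM no *Prl*-led well had *Drd2* and no *Gh*-led well had *Ghrhr* (100% missing in each); likewise 100% in plate columns 4 to 6 and 10 to 12 for *Drd2* (22 wells) and in columns 1 to 3 and 7 to 9 for *Ghrhr* (1 well). Over the settings run, the share without *Crhr1* ran from 33.3% to 71.4% and that without *Gnrhr* from 40.0% to 80.0%. Both stayed within the intervals of the reported shares, but these rest on 5 wells and are too wide to show stability. With the leading hormone chosen relative to its own median over wells, 91.7% of 12 *Prl*-led wells lacked *Drd2*, 71.4% of 14 *Pomc*-led wells *Crhr1* and 94.7% of 19 *Gh*-led wells *Ghrhr*. The median of 0 receptors per well held under all settings.

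Ratios of means turned on single wells, a choice made after seeing the data. *Crhr1* in *Pomc*-led against *Prl*-led wells was 1.64-fold, 44.2 without B6 and H10, 45.2 without B6 and 0.784 without B2. *Sstr3* went to 0.125 (*Pomc*-led, without H2) and 0 (*Gh*-led, without F4). *Gnrhr* was 0.474 (*Pomc*-led) and 0.245 (*Gh*-led), and 9.40 and 11.8 as a ratio of shares of wells. Without E3, when 1 count was left in *Prl*-led wells, it was 6371 (counting interval 1143 to 251634) and 3289 (590.3 to 129898). These intervals cover the error of that 1 count only. Of the genes most like *Crhr1*, picked as the highest of 10127 in these same wells, *Khdrbs2* had a rank correlation of 0.41, *Haus7* of 0.39 and *Ppm1f* of 0.60. No paired analysis was possible because there is 1 group of wells.

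Depth limits these results: in 14 *Prl*-led wells 0 counts do not exclude *Drd2* at the level of G1. In the other wells without it, they do so only as far as the sampling of reads goes.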

Other observations

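*Agtr1a*, an angiotensin II receptor gene, was found at 1 CPM or more in 2 wells, B2 with 662 counts (125 CPM) and D10 with 48 (15.8 CPM). These were both *Pomc*-led and held the most *Crhr1* among wells with at least 2000 gene counts. *Agtr1a* was at 0 in the other 3 *Pomc*-led wells, and *Prl*-led C2 held 1 count (0.668 CPM). The 4 wells with *Adcyap1r1* at 1 CPM or more, H2, H3, A2 and B3, all had *Crhr1*, and were 4 of the 11 with *Crhr1*. In A2 and B3 both genes rested on 1 count. Under 1 CPM, the deeper well H11 held 2 counts of *Adcyap1r1* (0.347 CPM) without *Crhr1*, so this overlap depends on the limit. Of the 5 wells with *Oprm1*, a mu opioid receptor gene, 4 had *Crhr1*. H7 held 1 count of *Oprm1* under the limit (0.415 CPM), without *Crhr1*. *Oxtr* and *Crhr1* shared 3 wells, of 13 and 11. These overlaps were noticed after the values were seen and were not tested, and H2 and B3, which take part in several, were among the 3 wells with the most genes.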
